A study of Mus musculus with 8 samples.

Results

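Expression of 10 inflammasome genes was examined in 2 kinds of primary mouse cell exposed to auranofin, a gold-containing anti-rheumatic drug. The genes were chosen by symbol. They were 3 sensors (Nlrp3, Aim2, Nlrc4), the adaptor Pycard, the inflammatory caspases Casp1 and Casp4, the pore-forming protein gasdermin D (Gsdmd) and 3 interleukin genes (Il1a, Il1b, Il18). All 10 had a row in both tables, which list 18645 genes for activated hepatic stellate cells (AHSC) and 17408 for bone marrow-derived macrophages (BMDM), and all 10 passed the filter of a mean of at least 1 FPKM (fragments scaled to transcript length and to library size) in both. That filter kept 12149 AHSC genes and 9232 BMDM genes.

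All cells were from C57BL/6 mice, with 2 stranded mRNA libraries in each group. Stellate cells, which become collagen-producing cells in the injured liver, were isolated by enzyme digestion and density gradient. The study describes their activation by culture with serum on uncoated plastic. AHSC were left without the drug (vehicle hereafter, called untreated in the labels) or given 0.03 µM auranofin, for 12 h. BMDM, grown from the marrow of 8-week-old males in M-CSF for 7 days, were all stimulated with LPS at 100 ng/mL and ATP at 1 mM, with or without auranofin. The labels give 0.1 µM auranofin for BMDM and the study's legend 0.3 µM, with 1 h of exposure. No BMDM library lacked LPS and ATP, so induction of the inflammasome genes by these agents could not be measured. Nothing says that the 2 libraries of a group came from separate cultures or animals, so p-values measure only the spread between these samples.

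An inflammasome is a protein platform that forms in the cytosol after a sensor meets microbial or damage signals. The sensors recruit the adaptor ASC, encoded by Pycard, which brings in pro-caspase-1. Caspase-1 cleaves pro-IL-1β and pro-IL-18 to their secreted forms and cleaves gasdermin D, whose fragment opens pores in the plasma membrane. LPS acting through TLR4 is known to raise Nlrp3 and Il1b mRNA in macrophages, and extracellular ATP triggers NLRP3 assembly through potassium efflux. The steps of assembly and cleavage take place on protein and were not measured by these RNA values.

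The stretches just before the transcription start are shown for 5 of the genes, because the 3 interleukin genes differed most between the 2 BMDM auranofin libraries, while Pycard differed little and Casp4 held the most matches to the NF-κB (kB) consensus. The sequences are from RefSeq on GRCm38.p6 (the mm10 assembly), 250 bases before the start, read 5′ to 3′ on the strand of the gene, with motif matches in capitals. The positions are chr2:129309973-129310222 on the minus strand for Il1a, chr2:129371140-129371389 on the minus strand for Il1b, chr9:50554450-50554699 on the plus strand for Il18, chr9:5308599-5308848 on the plus strand for Casp4 and chr7:127993868-127994117 on the minus strand for Pycard.
Il1a: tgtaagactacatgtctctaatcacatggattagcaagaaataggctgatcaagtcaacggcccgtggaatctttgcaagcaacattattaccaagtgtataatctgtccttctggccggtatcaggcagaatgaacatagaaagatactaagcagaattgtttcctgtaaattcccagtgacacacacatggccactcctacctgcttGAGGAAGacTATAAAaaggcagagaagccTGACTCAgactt
Il1b: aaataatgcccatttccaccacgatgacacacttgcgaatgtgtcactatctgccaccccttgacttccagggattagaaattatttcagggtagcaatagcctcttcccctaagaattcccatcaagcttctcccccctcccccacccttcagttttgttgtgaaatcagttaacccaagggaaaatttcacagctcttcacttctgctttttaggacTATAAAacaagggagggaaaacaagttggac
Il18: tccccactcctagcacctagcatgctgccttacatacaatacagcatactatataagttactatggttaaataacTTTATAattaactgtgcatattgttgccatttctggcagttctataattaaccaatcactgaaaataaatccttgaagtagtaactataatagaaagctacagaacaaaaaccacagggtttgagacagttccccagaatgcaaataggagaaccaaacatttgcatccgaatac
Casp4: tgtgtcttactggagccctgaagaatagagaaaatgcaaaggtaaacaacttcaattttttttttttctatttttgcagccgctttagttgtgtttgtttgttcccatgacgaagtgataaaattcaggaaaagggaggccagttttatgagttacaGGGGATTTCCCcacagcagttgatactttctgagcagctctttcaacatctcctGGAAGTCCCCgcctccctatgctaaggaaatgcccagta
Pycard: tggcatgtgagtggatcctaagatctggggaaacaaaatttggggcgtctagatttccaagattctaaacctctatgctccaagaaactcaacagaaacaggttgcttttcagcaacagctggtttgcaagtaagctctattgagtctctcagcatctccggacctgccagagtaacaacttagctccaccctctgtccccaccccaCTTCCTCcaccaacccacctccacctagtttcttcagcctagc

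A search of 7 motifs on both strands was run over windows of 300 bases, from 250 before to 50 after each start. TATAAA was found in Il1a, Il1b and Il18 and in no other of the 9 genes with an entry (Gsdmd had none), against 15.7% of the 27025 genes in the RefSeq table. Its first base lay at -32 in Il1a and -31 in Il1b, counted back from the start. In Il18 it lay at -175 on the opposite strand and is printed above as TTTATA. The kB consensus was found in Casp4 and Nlrp3, against 9.55% of genes, and 2 of its 3 matches in Casp4 overlap each other. GAGGAAG was found in Nlrp3, Aim2, Pycard and Il1a (15.4% of genes), TGANTCA in Il1a (8.97%) and TGACNNNGC in Nlrp3 (14.0%, 10 bases past the start). GAANNTTC and the interferon-stimulated response element were found in none of these windows. In the part of the mRNA after the stop codon, ATTTA was counted 5 times in Nlrp3, 4 times in Il1b, 3 times in Il1a and 0 times in Casp1 and Gsdmd, where 66.4% of 5513 tested genes held it at least once. That part is only 88 bases long in Casp1 and 169 in Gsdmd, against a median of 941 in those genes. Per kb the count was 8.71 in Il1b, 8.13 in Il18, 7.87 in Casp4, 7.22 in Nlrp3, 2.72 in Il1a, 1.42 in Nlrc4 and 0.978 in Aim2. All of these are matches of letters and do not show that a factor binds.

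On mm10, Casp1 (chromosome 9, 5298517 to 5307281) and Casp4 (chromosome 9, 5308849 to 5336791) are neighbours on the plus strand, 1.567 kb apart with no gene between. Il1a (chromosome 2, 129299609 to 129310186) and Il1b (chromosome 2, 129364569 to 129371164) lie 54.4 kb apart on the minus strand. Other annotated genes overlap Aim2 (Cadm3), Nlrc4 (Gm4708), Il1a (Gm14023), Il1b (the antisense gene Il1bos) and Il18 (Bco2 and Tex12). Whether the counting used strand is not given in the sources used here, so fragments of these overlaps may be shared.

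The estimated depth was 29800000 to 39400000 fragments per library in AHSC and 27500000 to 34900000 in BMDM. In AHSC 19 of the 6430 genes whose mean reached 10 FPKM were 2-fold or more apart between the auranofin libraries, and 13 between the vehicle libraries. In BMDM the same counts were 383 and 14 of 4245, so BMDM auranofin replicate 1 and replicate 2 stood apart. The AHSC libraries held the 14 stellate markers at a summed level of 4179 to 4816 FPKM (Col1a1 926.7 to 1075 FPKM, Des 43.4 to 55.1 FPKM). They also held all 15 macrophage markers at a higher summed level of 9414 to 9851 FPKM. Among these Lyz2 was at 5379 to 5554 FPKM and Adgre1 at 103 to 111 FPKM. The summed macrophage level was 12475 to 13756 FPKM in BMDM, where Des, Pdgfrb, Reln, Hand2 and Rgs5 were under 1 FPKM. The inflammasome genes are well known in macrophages, and the part of macrophage RNA in their AHSC levels was not tested. In such bulk samples, fewer cells of a type and less RNA per cell cannot be told apart.

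The order of the vehicle levels differed between the cell types. In AHSC Casp1 (26.1 and 24.1 FPKM) and Gsdmd (24.6 and 23.7 FPKM) were highest and did not differ beyond their spread. They were followed by Il1a (18.9 and 15.6 FPKM), Casp4 (12.4 and 13.0 FPKM), Il18 (10.5 and 10.9 FPKM), Pycard (8.31 and 8.47 FPKM) and Aim2 (7.62 and 7.40 FPKM). Nlrp3 (3.48 and 3.37 FPKM), Il1b (3.57 and 1.64 FPKM) and Nlrc4 (2.14 and 2.40 FPKM) were lowest, and the Il1b pair spanned both of its neighbours.

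In BMDM Il1b (1593 and 1708 FPKM) and Il1a (1514 and 1518 FPKM) stood far above the rest and within the top 0.218% of the listed genes. Casp4 (235 and 228 FPKM), Casp1 (222 and 222 FPKM) and Nlrp3 (215 and 220.0 FPKM) lay close together. Il18 (124 and 116 FPKM), Gsdmd (80.8 and 80.1 FPKM), Aim2 (37.7 and 38.2 FPKM) and Pycard (12.2 and 13.9 FPKM) followed in that order without overlap. Nlrc4, the sensor that acts with NAIP proteins on flagellin, was lowest at 0.806 and 0.929 FPKM.

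The tables were normalized separately, and the cell types differ in stimulus, dose and time, so the levels are set side by side with no test. The vehicle mean was 633 times higher in LPS and ATP-treated BMDM than in AHSC for Il1b, 87.9 times for Il1a and 63.5 times for Nlrp3. For Casp4, the caspase that binds cytosolic LPS, it was 18.2 times higher, for Il18 11.1 times and for Casp1 8.84 times. Aim2, the sensor of cytosolic DNA, was 5.06 times higher, Gsdmd 3.33 times and Pycard 1.55 times, and Nlrc4 was at 0.382 of its AHSC level. In vehicle BMDM the ratio of Nlrp3 to Pycard in FPKM was 17.6 and 15.9, against 0.419 and 0.398 in vehicle AHSC. The mRNA of the sensor was thus the more abundant of this pair in BMDM and the less abundant in AHSC.

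**Figure D1:**
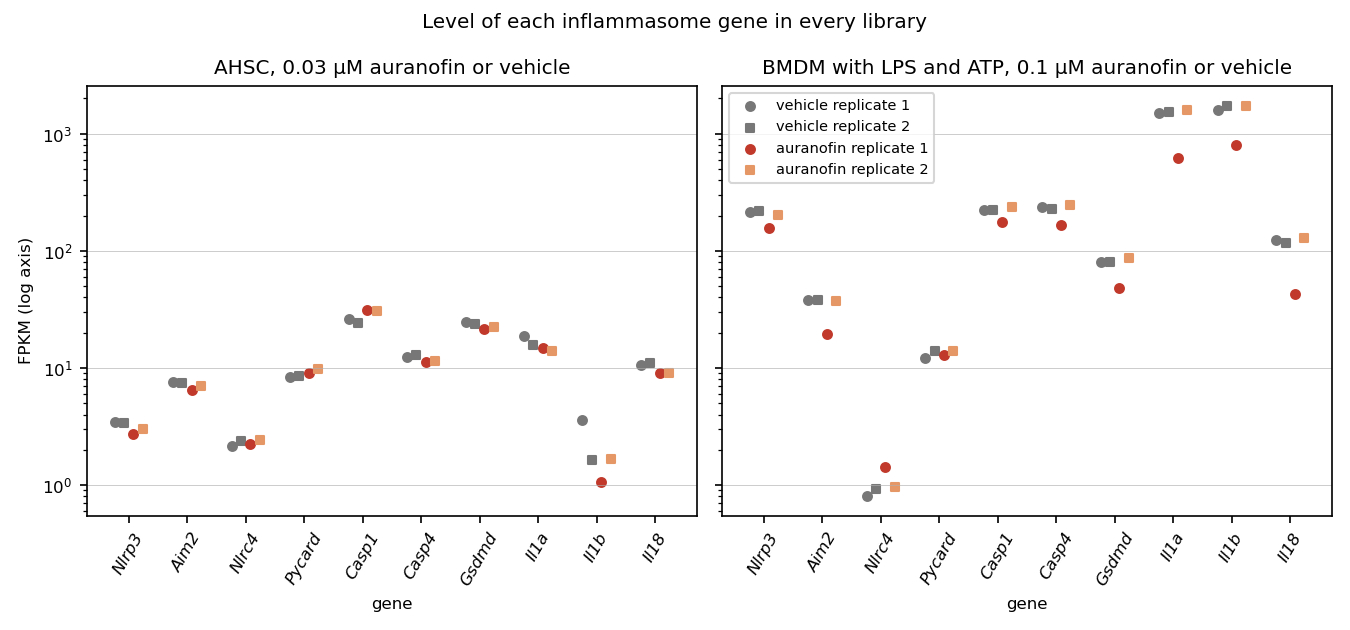
FPKM (log axis) of the 10 genes in each library of AHSC (left) and LPS and ATP-treated BMDM (right), 1 point per library, vehicle in grey and auranofin in red and orange. In BMDM auranofin replicate 1 lies below the other 3 libraries for every gene but Nlrc4 and Pycard, while in AHSC the 4 points of most genes lie close together.

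The study asked whether auranofin acts on the NLRP3 inflammasome, and the RNA comparison asks whether the mRNA of its parts differed between auranofin and vehicle. In the study's BMDM inflammasome assays LPS came first, and auranofin was added later together with ATP. Its authors reported no reduction of the priming signals by auranofin, and inhibition only of caspase-1 cleavage and IL-1β maturation. In AHSC the differences were small. By limma on log2(FPKM + 1), 0 of the 10 genes passed the thresholds (a change of 1.5-fold or more with an unadjusted p below 0.05), which 0.576% of all genes tested passed, and 0 had a Benjamini-Hochberg adjusted p under 0.05 (2.33% of all genes). The unadjusted p alone was under 0.05 for 8 of the 10, against 17.8% of all genes, and 6 of these 8 were lower with auranofin (9.22% of all genes). The 2 groups of libraries did not overlap for the same count of 8 genes, 6 lower and 2 higher, against 23.9% and 26.2% of all genes. The median log2 fold change over the 10 genes was -0.15, beside 0.005 over all genes tested. In single libraries only Il1b was 1.5-fold or more below the vehicle mean, in auranofin replicate 1, where 0.65% of all genes were.

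Among the sensors, Nlrp3 read 3.48 and 3.37 FPKM with vehicle against 2.71 and 3.01 FPKM with auranofin. Both auranofin libraries lay below both vehicle libraries, with a log2 fold change of -0.20 (SE 0.07, limma adjusted p = 0.221). Aim2 read 7.62 and 7.40 FPKM against 6.48 and 6.99 FPKM, again without overlap, with a log2 fold change of -0.14 (limma adjusted p = 0.279). Nlrc4 read 2.14 and 2.40 FPKM against 2.22 and 2.40 FPKM, and its groups overlapped (95% interval of the log2 fold change -0.17 to 0.21).

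Pycard and Casp1 were the 2 genes whose auranofin libraries both lay above the vehicle libraries. Casp1, the protease of the canonical inflammasome, read 26.1 and 24.1 FPKM with vehicle against 31.5 and 30.4 FPKM with auranofin. Its fold change was 1.22 on the log2(FPKM + 1) scale (log2 0.29, SE 0.05, limma adjusted p = 0.0551), below the 1.5-fold threshold. Pycard read 8.31 and 8.47 FPKM against 9.0 and 9.87 FPKM, a log2 fold change of 0.15 (limma adjusted p = 0.254). Casp4, the neighbour of Casp1 on the chromosome, lay on the other side of 0. It read 12.4 and 13.0 FPKM against 11.1 and 11.5 FPKM (log2 fold change -0.15, limma adjusted p = 0.169). The ratio of Casp4 to Casp1 in FPKM was 0.476 and 0.538 with vehicle and 0.353 and 0.377 with auranofin. Its lack of overlap follows from the opposite directions of the 2 genes.

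Gsdmd read 24.6 and 23.7 FPKM with vehicle against 21.3 and 22.3 FPKM with auranofin (log2 fold change -0.14, limma adjusted p = 0.183). Among the interleukins, Il18 read 10.5 and 10.9 FPKM against 9.13 and 9.01 FPKM. Its 2 groups did not overlap and each was tight, and its log2 fold change was -0.22 (SE 0.05, limma adjusted p = 0.0776). Il1a, which is active without caspase-1 cleavage and serves as an alarm signal of dying cells, read 18.9 and 15.6 FPKM against 14.8 and 14.0 FPKM (log2 fold change -0.24, limma adjusted p = 0.253).

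Il1b had the most negative log2 fold change of the 10 in AHSC and the least certain one. It read 3.57 and 1.64 FPKM with vehicle against 1.05 and 1.67 FPKM with auranofin, so vehicle replicate 2 and auranofin replicate 2 were level and only vehicle replicate 1 was high. The log2 fold change was -0.57 with a 95% interval of -1.23 to 0.09 (limma adjusted p = 0.340). These levels rest on an estimated 152, 74, 43 and 89 fragments per library in the same order. Without vehicle replicate 2 the value was -0.97 and without auranofin replicate 2 it was -0.76, and Il1b passed the thresholds in both fits, as did 115 and 129 of all 12149 genes. Each of these fits has 1 library in a group, assumed to vary like the other group. Over the 4 libraries left out in turn it ran from -0.97 to -0.17. The 3 genes with the most similar pattern over the 4 AHSC libraries, out of 8814 whose mean reached 5 FPKM, were Ccl7, Cd300ld4 and Axl, with root mean square differences of 0.219, 0.225 and 0.227 on the log2 scale. Ccl7 read 57.2 and 45.6 FPKM with vehicle against 35.8 and 35.8 FPKM with auranofin.

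In AHSC the marker lists read as follows beside these differences. Of the 15 macrophage markers 13 had a log2 fold change below 0 and 0 passed the thresholds, with a median of -0.05, and of the 14 stellate markers 10 lay below 0, with a median of -0.13. Of all 12149 genes tested 5803 lay below 0. The Kupffer cell markers summed to 2386 to 2599 FPKM. The neutrophil markers (S100a8, S100a9, Ngp and others) summed to 17.6 and 6.78 FPKM with vehicle and to 6.24 and 74.3 FPKM with auranofin, so auranofin replicate 2 stood out there. Of the single markers 4 had a limma adjusted p under 0.05 (2.33% of all genes), and they are named after their values were seen. The stellate marker Acta2, smooth muscle actin, read 956 and 965 FPKM with vehicle against 743 and 737 FPKM with auranofin (log2 fold change -0.38, limma adjusted p = 0.00719). The endothelial markers Clec4g and Stab2 had log2 fold changes of -0.44 and -0.37 (limma adjusted p = 0.0130 and 0.0169), and the Kupffer cell marker Clec4f had 0.27 (limma adjusted p = 0.0395). The lists they come from went both ways. Of the 7 endothelial markers 4 lay above 0 and 3 below, with a median of 0.03. Of the 5 Kupffer cell markers tested 3 lay above 0 and 2 below. The part of these markers in the results was not tested. In AHSC the endothelial markers summed to 182 to 194 FPKM, the dendritic cell markers to 32.6 to 43.7 FPKM, the T, NK and B cell markers to 2.11 to 2.87 FPKM and the hepatocyte markers to at most 1.60 FPKM.

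**Figure D2:**
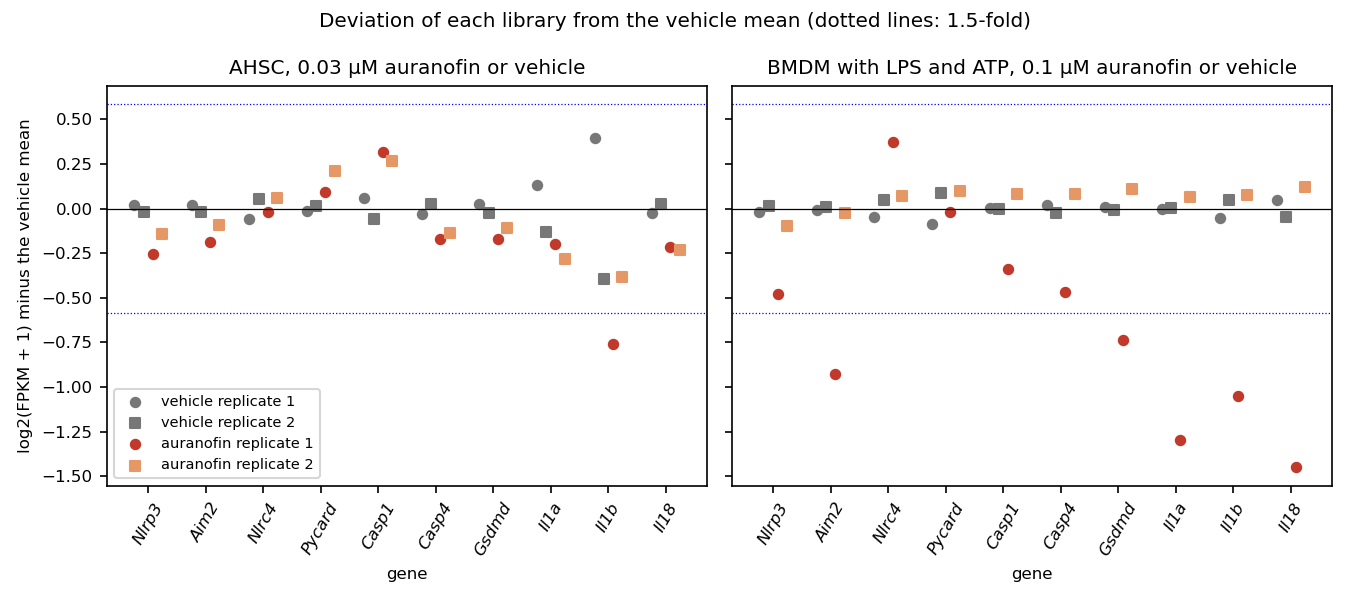
Difference of each library from the vehicle mean in log2(FPKM + 1) for the 10 genes in AHSC (left) and BMDM (right), with dotted lines at 1.5-fold. In AHSC the points lie within 1.5-fold except Il1b in auranofin replicate 1, and in BMDM auranofin replicate 1 lies beyond 1.5-fold below the vehicle mean for 5 genes while auranofin replicate 2 stays near 0.

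In BMDM the 2 auranofin libraries gave different pictures. In auranofin replicate 1, 5 of the 10 genes (Aim2, Gsdmd, Il1a, Il1b and Il18) were at least 1.5-fold below the vehicle mean, where 8.07% of all genes tested were that far below it and 15.2% that far above. In auranofin replicate 2 the count was 0 of 10 (0.282% of all genes). The median difference from the vehicle mean over the 10 genes was -0.61 in auranofin replicate 1, beside 0.18 over all genes, and 0.08 in auranofin replicate 2, beside 0.005. By limma on all 4 libraries 0 of the 10 genes passed the thresholds, which 0.152% of all genes passed, and 0 had an unadjusted p under 0.05 (0.531% of all genes) or an adjusted p under 0.05 (0.0108%). Without auranofin replicate 2, 5 of the 10 genes passed the thresholds, as did 2122 genes in all, and without auranofin replicate 1 the count was 0 of 10. In the fit without auranofin replicate 2 the remaining auranofin library is assumed to vary like the vehicle libraries.

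The interleukin genes showed the lowest levels in auranofin replicate 1 relative to vehicle. Il18 read 124 and 116 FPKM with vehicle, then 43.1 and 129.9 FPKM in auranofin replicates 1 and 2. The first auranofin library was at 36.1% of the vehicle mean and the other at 109%, so the group of auranofin lies on both sides of vehicle. Its log2 fold change over all libraries was -0.67, with a 95% interval of -2.23 to 0.90 (limma adjusted p = 0.721). Without auranofin replicate 2 it was -1.45 and without auranofin replicate 1 it was 0.12.

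Il1a read 1514 and 1518 FPKM with vehicle against 616 and 1586 FPKM with auranofin, or 40.6% and 105% of the vehicle mean. Il1b read 1593 and 1708 FPKM against 796 and 1739 FPKM, or 48.2% and 105%. The vehicle libraries of both genes lay close together, and only auranofin replicate 1 was low. The log2 fold change was -0.62 for Il1a (95% interval -1.99 to 0.75) and -0.49 for Il1b (95% interval -1.64 to 0.66). Without auranofin replicate 2 the values were -1.30 and -1.05, and without auranofin replicate 1 they were 0.06 and 0.08. The ratio of Il1a to Il1b was 0.950 and 0.889 with vehicle and 0.775 and 0.912 with auranofin, so it was lowest in auranofin replicate 1. In depth of fragments these values are far from the counting limit, at an estimated 37705 or more fragments per library for both genes.

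Of the sensors in BMDM, Nlrp3 read 215 and 220.0 FPKM with vehicle against 156 and 203 FPKM with auranofin, and Aim2 read 37.7 and 38.2 FPKM against 19.5 and 37.3 FPKM. Both genes had both auranofin libraries below both vehicle libraries (12.6% of all genes), although in auranofin replicate 2 they were still at 93.6% and 98.2% of the vehicle mean. Their log2 fold changes were -0.29 and -0.48 (limma adjusted p = 0.721 for each). Without auranofin replicate 2 they were -0.48 and -0.93, and Aim2 then passed the thresholds, while without auranofin replicate 1 they were -0.096 and -0.025. Nlrc4 read 0.806 and 0.929 FPKM against 1.42 and 0.958 FPKM, so it lay above vehicle in both auranofin libraries (26.3% of all genes). Its mean passed the filter of 1 FPKM only through auranofin replicate 1, and its values rest on an estimated 114 to 235 fragments. Its log2 fold change was 0.22 over all libraries, 0.37 without auranofin replicate 2 and 0.069 without auranofin replicate 1.

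Pycard stayed closest to vehicle, with 12.2 and 13.9 FPKM against 12.8 and 14.0 FPKM and a 95% interval of the log2 fold change of -0.32 to 0.39. Casp1 read 222 and 222 FPKM with vehicle against 176 and 235 FPKM with auranofin. Casp4 read 235 and 228 FPKM against 167 and 245 FPKM, and Gsdmd read 80.8 and 80.1 FPKM against 47.9 and 86.8 FPKM. For these 3 genes auranofin replicate 1 was at 79.1%, 72.1% and 59.6% of the vehicle mean and auranofin replicate 2 at 106%, 106% and 108%, on the other side of it. Their log2 fold changes were -0.13, -0.19 and -0.31 over all libraries and 0.08, 0.08 and 0.11 without auranofin replicate 1. Without auranofin replicate 2, Gsdmd (-0.74) passed the thresholds and Casp1 (-0.34) and Casp4 (-0.47) did not reach 1.5-fold.

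**Figure D3:**
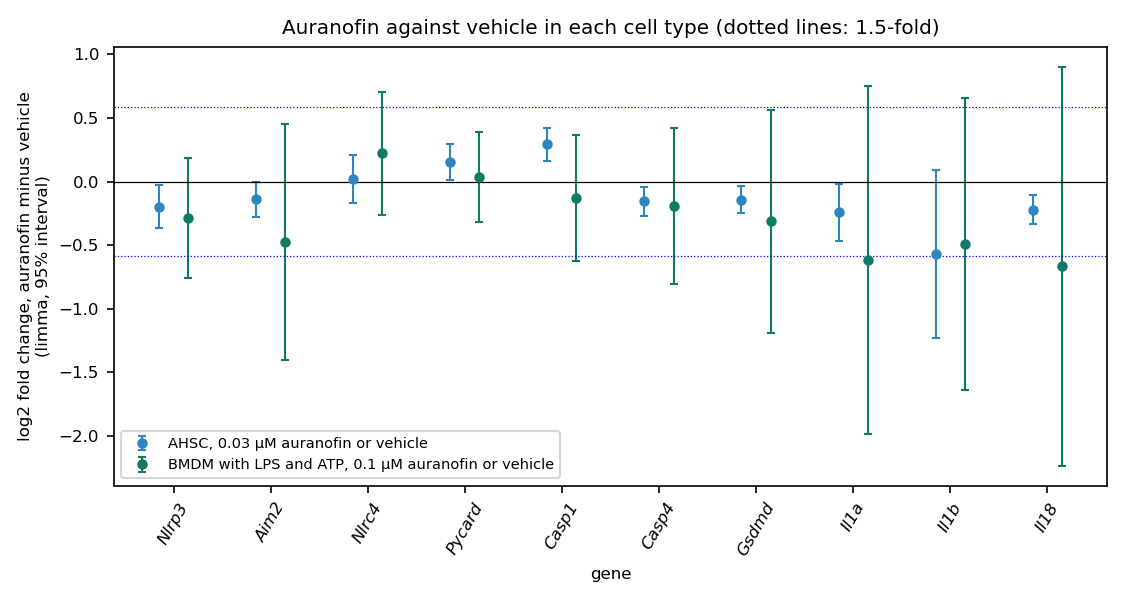
Log2 fold change of auranofin against vehicle on the log2(FPKM + 1) scale with its 95% interval from limma for the 10 genes, AHSC in blue and BMDM in green, with dotted lines at 1.5-fold. The BMDM intervals all include 0 and reach from -2.23 to 0.90 for Il18, and the AHSC intervals are narrow for every gene but Il1b.

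Genes with the most similar pattern were sought over the 4 BMDM libraries among 5922 genes whose mean reached 5 FPKM. The closest to Il1a were Ccl9, Mxd1 and Lhx2, with root mean square differences of 0.0215, 0.0215 and 0.0221 on the log2 scale. Ccl9 read 562 and 567 FPKM with vehicle against 231 and 607 FPKM with auranofin, a split like that of Il1a. The closest to Il1b were Tmem110, Cnn3 and Traf1 (0.0176, 0.0177 and 0.0221), and Traf1 read 123 and 131 FPKM against 62.5 and 132 FPKM. The closest to Il18 were Aldh1b1, Ifit1bl1 and Rilpl1 (0.0363, 0.0497 and 0.0505), and Aldh1b1 read 44.4 and 43.3 FPKM against 16.0 and 46.6 FPKM. With 4 libraries and 1 of them apart, many genes can share such a pattern.

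The macrophage and neutrophil marker sums did not show the same split, while some single macrophage markers did. In BMDM the macrophage markers summed to 12831 and 12475 FPKM with vehicle and to 13756 and 12772.5 FPKM with auranofin. In auranofin replicate 1, 3 of 15 were at least 1.5-fold lower (8.07% of all genes) and 1, Cd14, at least 1.5-fold higher (15.2% of all genes). The 3 lower ones were Mertk, at 51.5% and 94.1% of the vehicle mean in auranofin replicates 1 and 2, Fcgr1 (54.8% and 103%) and Spi1 (66.5% and 104%). The neutrophil markers summed to 200.03 and 205.8 FPKM with vehicle and to 270.0 and 269.9 FPKM with auranofin, and all 4 tested markers had a log2 fold change above 0 with 0 past the thresholds. By limma the unadjusted p was 0.00737 for S100a8, 0.0248 for S100a9, 0.0390 for Ngp and 0.532 for Camp, where 0.531% of all genes were under 0.05. The limma adjusted p was 0.721 for S100a8, S100a9 and Ngp. The endothelial markers summed to 13.6 and 13.3 FPKM with vehicle, then 6.36 and 11.8 FPKM in auranofin replicates 1 and 2, and hepatocyte markers to at most 3.71 FPKM. The dendritic cell markers summed to 9.66 to 10.6 FPKM and the T, NK and B cell markers to 3.16 to 3.89 FPKM. Their part in the results was not tested.

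A list of 82 related genes gave the surroundings of the 10. In AHSC 60 of them were tested, 31 with a log2 fold change above 0 and 29 below, and 1 gene passed the thresholds (0.576% of all genes). It was Il1rn, the IL-1 receptor antagonist, which fell from 61.4 and 59.8 FPKM to 35.6 and 41.5 FPKM. Its log2 fold change was -0.64 (SE 0.07, limma adjusted p = 0.0165), and without auranofin replicate 1 it was -0.53, under 1.5-fold. Il18bp, which neutralises IL-18 and was chosen after its values were seen, read 30.0 and 28.8 FPKM against 34.4 and 34.8 FPKM (limma adjusted p = 0.0525), so these 2 antagonists lay on opposite sides of 0.

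Adjusted p-values under 0.05 were reached in AHSC by 4 of the 60 related genes (2.33% of all genes), namely Il1rn and 3 that lay above vehicle. Sqstm1, the autophagy receptor p62, read 340.3 and 319.9 FPKM with vehicle against 493 and 449 FPKM with auranofin (log2 fold change 0.51, limma adjusted p = 0.0149). Mlkl, the executor of necroptosis, read 14.2 and 14.0 FPKM against 20.6 and 19.2 FPKM (0.47, limma adjusted p = 0.0122). Ninj1, which ruptures the plasma membrane downstream of gasdermin D pores, read 127 and 129 FPKM against 177 and 162 FPKM (0.40, limma adjusted p = 0.0197). All 3 stayed under 1.5-fold, while both auranofin libraries lay above both vehicle libraries.

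Panx1, a channel that releases ATP, and Card19 were the other named AHSC genes above vehicle, with log2 fold changes of 0.36 and 0.29 (limma adjusted p = 0.122 and 0.0522). Below vehicle were Gbp5 (-0.30), a guanylate-binding protein, Tnfaip3 (-0.27), the NF-κB inhibitor A20, Birc2 (-0.22), the inhibitor of apoptosis cIAP1, and Ifi203 (-0.22), of the interferon-inducible DNA-sensing family. None of these 4 had an adjusted p under 0.05. By group, the sensors had 3 above and 8 below 0, the regulators 9 and 3, the caspases and death genes 9 and 4, the guanylate-binding and interferon genes 2 and 7, and the priming genes 4 and 4.

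In BMDM 60 of the related genes were tested, 21 with a log2 fold change above 0 and 39 below, and 0 passed the thresholds, had an unadjusted p under 0.05 or an adjusted p under 0.05 by limma. In auranofin replicate 1, 17 of the 60 were at least 1.5-fold below the vehicle mean and 8 at least 1.5-fold above, beside 8.07% and 15.2% of all genes. The counts in auranofin replicate 2 were 1 and 0 (0.282% and 0.379% of all genes). Of the 9 guanylate-binding and interferon genes all had a log2 fold change below 0, as had 3130 of all 9232 genes tested, and 6 were at least 1.5-fold lower in auranofin replicate 1 (8.07% of all genes). Gbp5, which promotes NLRP3 assembly, read 672 and 671 FPKM with vehicle against 349.9 and 658 FPKM with auranofin. Gbp7 read 116 and 122 FPKM against 62.8 and 109 FPKM, and Nlrc5, a regulator of MHC class I genes, read 68.9 and 68.3 FPKM against 39.1 and 61.0 FPKM. Pydc4 (-0.43) and Naip6 (-0.41) had the same order, with -0.069 and -0.16 without auranofin replicate 1 and -0.80 and -0.66 without auranofin replicate 2. The naming rule required both auranofin libraries of these 5 genes to lie below both vehicle libraries (12.6% of all genes), so that is no result. The larger part of the difference was in auranofin replicate 1.

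On the other side, Ninj1 read 130.1 and 137 FPKM with vehicle against 339 and 141 FPKM with auranofin in BMDM. Sqstm1 read 2307 and 2292 FPKM against 4902 and 2426 FPKM, Card19 read 98.2 and 98.5 FPKM against 194 and 102 FPKM, and Txnip, which binds thioredoxin and NLRP3, read 40.9 and 42.1 FPKM against 79.2 and 42.3 FPKM. Il33, an IL-1 family alarm signal, was under the filter at 0.253 and 0.276 FPKM against 2.40 and 0.396 FPKM. By the same naming rule each had to lie above vehicle in both auranofin libraries (26.3% of all genes tested). The difference in auranofin replicate 2 was small. Among the related genes without overlap, Ninj1, Sqstm1 and Card19 were in the 5 furthest above vehicle in both cell types. Gbp5 was in the 5 furthest below in both. In BMDM the means of Panx1 and Ripk3 rose further than those of Sqstm1 and Card19, but their groups overlapped. No test was made between the cell types.

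**Figure D4:**
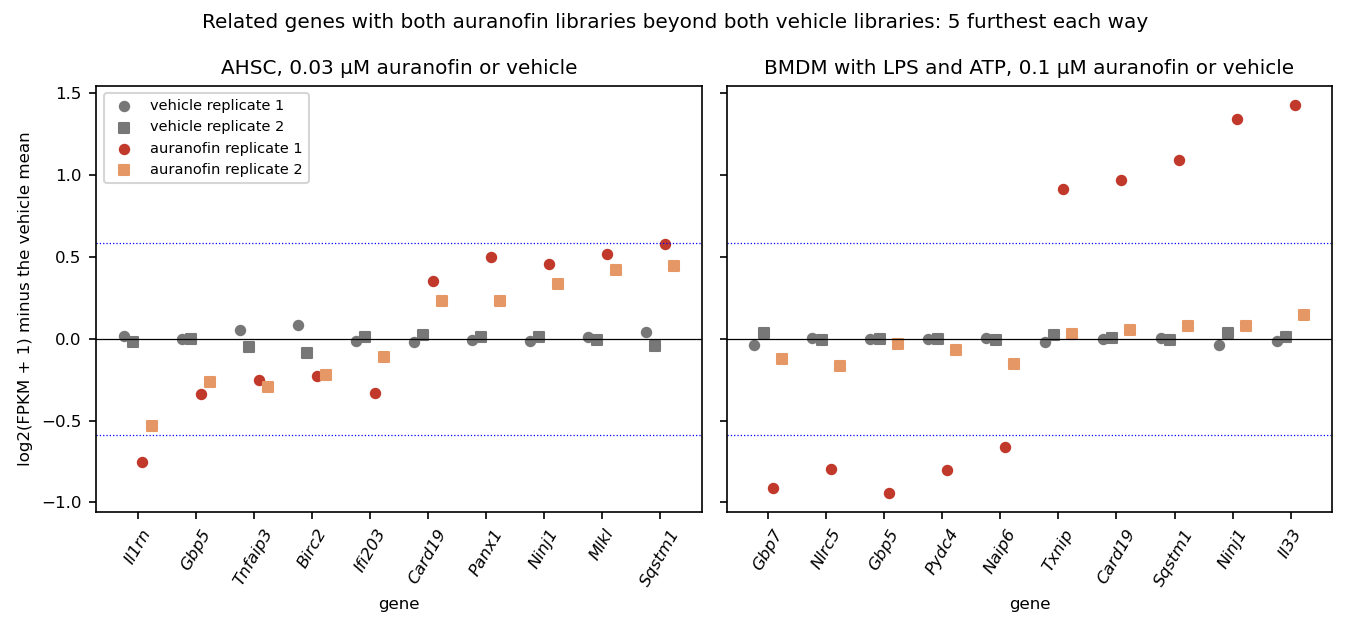
Difference of each library from the vehicle mean in log2(FPKM + 1) for the related genes whose auranofin libraries both lay beyond both vehicle libraries, the 5 furthest each way in AHSC (left) and BMDM (right), with dotted lines at 1.5-fold. In AHSC the 2 auranofin libraries lie close together, and in BMDM auranofin replicate 1 lies past 1.5-fold for every gene shown while auranofin replicate 2 lies near 0.

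The balance of cytokine and antagonist mRNA was read from ratios of FPKM within a library. The ratio of Il1rn to Il1b in BMDM was 0.827 and 0.732 with vehicle, then 1.25 and 0.790 in auranofin replicates 1 and 2. The ratio of Il18bp to Il18 was 1.00 and 1.03 with vehicle, then 2.15 and 0.987 in auranofin replicates 1 and 2. Both ratios were highest in auranofin replicate 1, and auranofin replicate 2 lay near vehicle. In AHSC the ratio of Il18bp to Il18 was 2.84 and 2.63 with vehicle and 3.77 and 3.86 with auranofin. That separation follows from Il18bp lying above vehicle and Il18 below it in both auranofin libraries. The AHSC ratio of Il1rn to Il1b was 17.2 and 36.4 with vehicle and 33.7 and 24.9 with auranofin, which overlap.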

How the data were processed

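RNA from 4 AHSC and 4 BMDM libraries was sequenced by the authors from a stranded mRNA kit. The submitters' processing notes name CASAVA, FastQC 0.11.7, Trimmomatic 0.38, HISAT2 2.1.0, StringTie 1.3.4d and the mm10 build. The authors deposited FPKM values, which scale the fragments of a gene to transcript length and library, in 1 table per cell type, and no counts. Depth was estimated from GENCODE M21 lengths and the size of 1 fragment seen among low values, and covers counting error only. Samples were grouped by their labels. Each table was fitted alone with limma 3.58.1 in R 4.3.3 (lmFit, eBayes with trend) on log2(FPKM + 1) for genes whose mean reached 1 FPKM, so fold changes of low genes are understated. Thresholds were 1.5-fold and an unadjusted p of 0.05, with Benjamini-Hochberg adjustment over all genes tested. An exact permutation of 2 against 2 libraries cannot go under p = 0.333. No replicate was a copy of another. The fit was checked on simulated data.

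The 10 genes, the related list and the marker lists were chosen with earlier results of these data known. Beside the 10 genes, the text names related genes past the thresholds in either table, the 5 furthest above and below vehicle in each table whose auranofin libraries both lay beyond both vehicle libraries, and the 3 genes with the most similar pattern for genes whose values span at least 1 on the log2 scale. All further genes were picked with their values in view. Older symbols were used where the tables hold them. Promoter sequences are from RefSeq on GRCm38.p6, found for 9 of the 10 genes. Alternatives changed 1 choice at a time: a pseudocount of 0.1, no filter, a mean of at least 5 FPKM, centring on the median, quantile normalization, no trend, the replicate number as a block, and each library left out in turn. Tables and figures were made in Python 3.11.15 with pandas 2.3.3 and matplotlib 3.10.9.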

Additional observations from a re-analysis of the deposited data

How the results depend on the processing

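With 2 libraries a group the precision is low, and in BMDM auranofin replicate 1 and replicate 2 lay far apart. Il1b in AHSC and Nlrc4 in BMDM rest on the fewest estimated fragments, and the AHSC vehicle libraries differ 2.18-fold in Il1b, beyond the counting CVs of 8.10% and 11.7%. The number of genes past the thresholds was 70 in AHSC and 14 in BMDM. With a pseudocount of 0.1 it was 124 and 27, and with a mean of at least 5 FPKM it was 8 in BMDM. In BMDM the 14 were 8 higher and 6 lower, and after centring on the median or quantile normalization 18 were 8 higher and 10 lower. With each library left out in turn the count ran from 106 to 137 in AHSC and from 14 to 2122 in BMDM, the highest without auranofin replicate 2, with 31 without auranofin replicate 1 and 26 without vehicle replicate 2. Of the 10 inflammasome genes the count past the thresholds was 0 in both cell types under every alternative that kept all libraries. It ran from 0 to 1 in AHSC and from 0 to 5 in BMDM with a library left out.

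With the replicate number as a block the count was 75 in AHSC and 42 in BMDM, with 0 of the 10 genes past the thresholds in either and 1 of the 10 with an adjusted p under 0.05 in AHSC, as also with a mean of at least 5 FPKM. The labels do not say that equal numbers share a batch. The deviations of same-numbered libraries correlated at 0.109 in AHSC and -0.0551 in BMDM across genes. With 2 libraries in each group these values cannot decide it, and whether same-numbered libraries share a batch was not tested.

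Pycard in BMDM changed sign with centring (-0.054) and quantile normalization (-0.050), from 0.04. These 2 scalings moved the median log2 fold change over all BMDM genes tested from 0.0893 to -0.003 and 0.0008. The cause of that shift of the median was not tested. With a library left out the log2 fold change ran from -0.036 to 0.075 for Nlrc4 in AHSC. In BMDM it ran from -0.048 to 0.12 for Pycard, -0.34 to 0.081 for Casp1, -0.47 to 0.084 for Casp4, -0.74 to 0.11 for Gsdmd, -1.30 to 0.064 for Il1a, -1.05 to 0.076 for Il1b and -1.45 to 0.12 for Il18.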

Other observations

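Some genes of the related list were low in vehicle BMDM and higher in auranofin replicate 1 alone. They were chosen after their values were seen. Panx1 read 1.13 and 1.17 FPKM with vehicle against 7.58 and 0.893 FPKM with auranofin, and Il1f9, the IL-36γ gene, read 2.21 and 1.68 FPKM against 7.75 and 1.75 FPKM. Ripk3, the kinase upstream of Mlkl in necroptosis, read 6.59 and 6.27 FPKM against 16.8 and 6.16 FPKM. Il1r1, the signalling receptor of IL-1, was under the filter at 0.285 and 0.209 FPKM against 1.21 and 0.258 FPKM.

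The next genes were also chosen after their values were seen. The interferon regulatory factor Irf8 read 195 and 228 FPKM with vehicle against 73.1 and 225 FPKM with auranofin in BMDM, or 34.5% and 106% of the vehicle mean. Casp8, which links inflammasomes to apoptosis, was at 54.2% and 106%, and Myd88, the adaptor of TLR4 and the IL-1 receptor, at 56.7% and 107%. Tlr4 itself read 9.05 and 8.82 FPKM against 9.45 and 8.45 FPKM, which overlap. In AHSC Irf8 read 23.1 and 23.8 FPKM against 25.6 and 25.2 FPKM.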
